A study of Mus musculus with 2 samples.

Results

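Leukotrienes and prostaglandins are lipid mediators made from arachidonic acid by separate enzyme branches, and 10 genes of their synthesis and breakdown were compared between the small intestine of IL-9 transgenic and wild-type mice. The genes were taken by name, with earlier results of these data known. They were 5 for the lipoxygenase branch (Alox5, Alox5ap, Ltc4s, Lta4h and Alox15) and 5 for the cyclooxygenase branch (Ptgs1, Ptgs2, Hpgds, Ptges and Hpgd). They are 10 of the genes of a whole-genome array on which 18194 genes had a probe set, a group of short probes for one transcript, that carried a single gene name. Of the 10, 9 had at least 1 such probe set and 15 probe sets were found in all. Ptgs1, the cyclooxygenase made in most tissues, had no probe set under its own name in the annotation used, so its level was not analysed here.

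Both groups were mice of the BALB/c background, 6 to 8 weeks old and untreated. One group carried an IL-9 transgene and the other was wild type, and total RNA from 3 mice was pooled for each array. The promoter that drives the transgene and the sex of the animals are not stated in the labels. With 1 array for each group, no difference below has a replicate check and p-values are not given. The study is titled as one of mast cells, gut permeability and hypersensitivity to oral antigen.

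In the lipoxygenase branch, phospholipase A2 first frees arachidonic acid from membranes, and 5-lipoxygenase, helped by its activating protein FLAP, turns it into leukotriene A4. Leukotriene A4 hydrolase makes leukotriene B4 from this, which attracts neutrophils, and leukotriene C4 synthase makes the cysteinyl leukotrienes, which contract smooth muscle and raise vessel permeability. In the cyclooxygenase branch, the cyclooxygenases make prostaglandin H2, which further synthases turn into prostaglandins D2, E2 and others. In the intestine, mast cells, macrophages and tuft cells (chemosensory cells of the epithelium) are known sources of these mediators.

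Gene levels are given as intensities on the scale of the deposited values, whose median was 78.7 on the transgenic and 78.3 on the wild-type array. A difference is the log2(intensity + 1) of the transgenic pool minus that of the wild-type pool, so 1 is 2-fold. Over all genes the median difference was 0.01, and 95% of genes lay between -0.45 and 0.46. Where a gene had several probe sets, their differences had a within-gene SD of 0.22, over 9012 genes, which describes spread within the arrays and not between mice. The epithelial genes Fabp1, Vil1 and Alpi read 21387, 8950 and 8867 in transgenic and 19741, 9653 and 8686 in wild-type tissue, so these markers of the labelled tissue were bright in both. Il9 read 62.2 in transgenic and 71.6 in wild-type tissue, so this probe set did not mark the transgene and all directions rest on the labels. The ratio of the 3′ to the 5′ probe set, a sign of RNA integrity, stood at 1.33 in the transgenic and 1.61 in the wild-type pool for actin, and 1.08 and 1.22 for Gapdh. Its part in the differences below was not tested.

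Promoter stretches of Alox5, Ltc4s and Ptgs2 are shown because Alox5 differed most among the members with a promoter sequence, Ltc4s acts downstream of it, and Ptgs2 is the inducible enzyme at the head of the other branch. Each is the 250 bases before the gene start in RefSeq on the mouse build GRCm38.p6, written in the direction of the gene. Capitals mark matches to the motifs searched on both strands. The Alox5 stretch is chr6:116461179-116461428 on the minus strand, the Ltc4s stretch is chr11:50238533-50238782 on the minus strand and the Ptgs2 stretch is chr1:150099781-150100030 on the plus strand.
Alox5: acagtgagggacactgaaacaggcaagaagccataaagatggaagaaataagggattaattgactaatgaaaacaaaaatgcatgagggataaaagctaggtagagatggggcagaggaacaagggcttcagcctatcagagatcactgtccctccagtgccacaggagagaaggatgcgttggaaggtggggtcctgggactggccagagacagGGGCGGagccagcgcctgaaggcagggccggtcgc
Ltc4s: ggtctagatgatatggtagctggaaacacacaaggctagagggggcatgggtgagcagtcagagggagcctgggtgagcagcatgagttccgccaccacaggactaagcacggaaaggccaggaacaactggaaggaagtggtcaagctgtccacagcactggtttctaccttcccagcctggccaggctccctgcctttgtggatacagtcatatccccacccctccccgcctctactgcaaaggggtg
Ptgs2: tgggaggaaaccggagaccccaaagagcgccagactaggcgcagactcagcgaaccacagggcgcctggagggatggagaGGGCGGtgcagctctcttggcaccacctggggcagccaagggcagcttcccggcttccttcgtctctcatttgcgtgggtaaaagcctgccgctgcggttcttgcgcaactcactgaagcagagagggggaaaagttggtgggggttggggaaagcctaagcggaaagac

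The motifs searched were the GC box GGGCGG, the STAT motif TTCNNNGAA and its wider form, in which 4 bases separate TTC and GAA, the GATA motif AGATAA, the octamer ATGCAAAT, the TATA box TATAAA and the CCAAT box CCAAT. The promoter table held 8 of the 10 members, all but Alox5ap and Alox15, and its start for Ptgs1, Hpgds and Ptges lies inside the outer limits that RefSeq gives the gene. Alox5 held 1 GC box, whose first base lies 35 bases before the start, and Ptgs2 held 1 at 170 bases. GC boxes stand in 32.7% of all 32851 stretches of this length, and CCAAT boxes in 33.8%. Ltc4s matched none of the motifs. Outside the printed stretches, Ptges held 2 GC boxes and 1 wider STAT motif (5.85% of all stretches), Hpgd held 1 GC box and Lta4h held 2 CCAAT boxes. Hpgds held the octamer, which is in 1.6% of all stretches, and Ptgs1 matched none of the motifs. The narrower STAT motif (7.02% of all stretches), the GATA motif (9.99%) and the TATA box (12.4%) were in none of the 8 members. GC content was 52.8% in the Alox5 stretch, 57.6% in that of Ltc4s and 61.6% in that of Ptgs2, beside a median of 52.4% over all stretches.

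The largest differences among the members were at the first step of leukotriene synthesis. Alox5ap and Alox5, which together carry out that step, were higher in the transgenic pool by 2-fold or more, and no other member differed by 2-fold in either direction. This is 2 of 9 members with a probe set, where 0.412% of all genes with a probe set were 2-fold higher. The members were chosen with earlier results of these data known, so this share describes and does not test. No member was 2-fold lower, where 0.132% of all genes were. Among genes past the expression filter, meaning that the higher of the 2 values reached the median of all values (78.5), the shares were 0.607% higher and 0.202% lower, and 8 members passed it.

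Alox5ap, which encodes FLAP, the membrane protein that presents arachidonic acid to 5-lipoxygenase, read 524 in transgenic and 149 in wild-type tissue. This is a difference of 1.80, or 3.49-fold, from 1 probe set. Only 22 of the 18194 genes had a higher difference. Alox5, the 5-lipoxygenase, read 359 and 148, a difference of 1.28, or 2.42-fold, also from 1 probe set, and 53 genes had a higher difference. Both genes lay above the median of all values in each pool. Over the alternative settings, Alox5ap lay between 1.71 and 1.81 and Alox5 between 1.20 and 1.28.

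The enzymes that use leukotriene A4 differed less. Ltc4s, the leukotriene C4 synthase, read 397 in transgenic and 290 in wild-type tissue, a difference of 0.45. Among genes between the 50th and 75th percentiles of mean intensity, where Ltc4s lies, 95% differed by between -0.48 and 0.50, and 5.01% of all genes lay at least as far from 0. Lta4h, the leukotriene A4 hydrolase, had 3 probe sets that did not go one way. The brightest, which can match several transcripts, read 4399 and 3564, a difference of 0.30. The next read 357 and 497, a difference of -0.48, and the dimmest read 142 and 153, a difference of -0.11. No direction is therefore given for Lta4h.

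Alox15, the lipoxygenase that oxidises arachidonic acid nearer its tail and is known from eosinophils and alternatively activated macrophages, read 99.7 in transgenic and 79.9 in wild-type tissue. The difference of 0.32 was reached or passed in size by 13.4% of all genes. Both values were close to the median of all values.

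**Figure D1:**
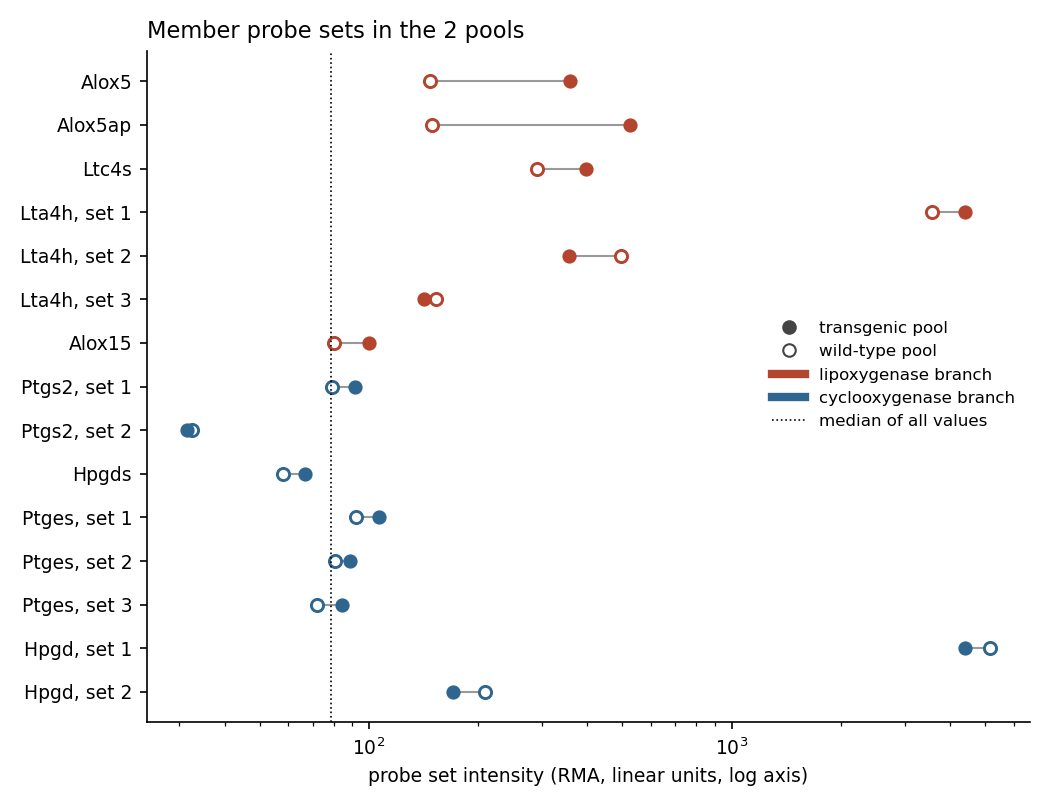
Intensity of the 15 probe sets of 9 members (horizontal log axis, linear RMA units) in the transgenic pool (filled) and the wild-type pool (open), 1 array each, with lipoxygenase members in red and cyclooxygenase members in blue. Alox5ap runs from 149 to 524 and Alox5 from 148 to 359, while the 2 further Lta4h probe sets, the second Ptgs2 probe set and both Hpgd probe sets read lower in the transgenic pool.

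In the cyclooxygenase branch the main probe sets of the measured members all lay between -0.22 and 0.21. Ptgs2, the inducible cyclooxygenase, read 91.4 in transgenic and 79.0 in wild-type tissue, a difference of 0.21, and its second probe set read 31.5 and 32.5, a difference of -0.05. Hpgds, the hematopoietic prostaglandin D synthase of mast cells and other immune cells, read 66.8 and 58.0, a difference of 0.20, and was the only measured member below the expression filter in both pools. Ptges, the inducible prostaglandin E synthase, read 107 and 91.8 in its brightest probe set, 88.5 and 80.5 in the second and 84.5 and 72.0 in the third. The 3 differences of Ptges were 0.21, 0.13 and 0.23, all above 0 and close to the within-gene SD. Differences at least as far from 0 as those of Ptges, Ptgs2 and Hpgds were found in 28.8%, 29.6% and 31.0% of all genes.

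Hpgd, the dehydrogenase that inactivates prostaglandins, was the one member whose probe sets all read lower in the transgenic pool. It read 4413 in transgenic and 5146 in wild-type tissue in a probe set that can match several transcripts, and 170 and 209 in the other. The differences were -0.22 and -0.29, and 26.9% of all genes lay at least as far from 0 as the first. Hpgd and Lta4h were the brightest members, with main probe sets above the 75th percentile of mean intensity, where 95% of genes lay between -0.53 and 0.52.

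**Figure D2:**
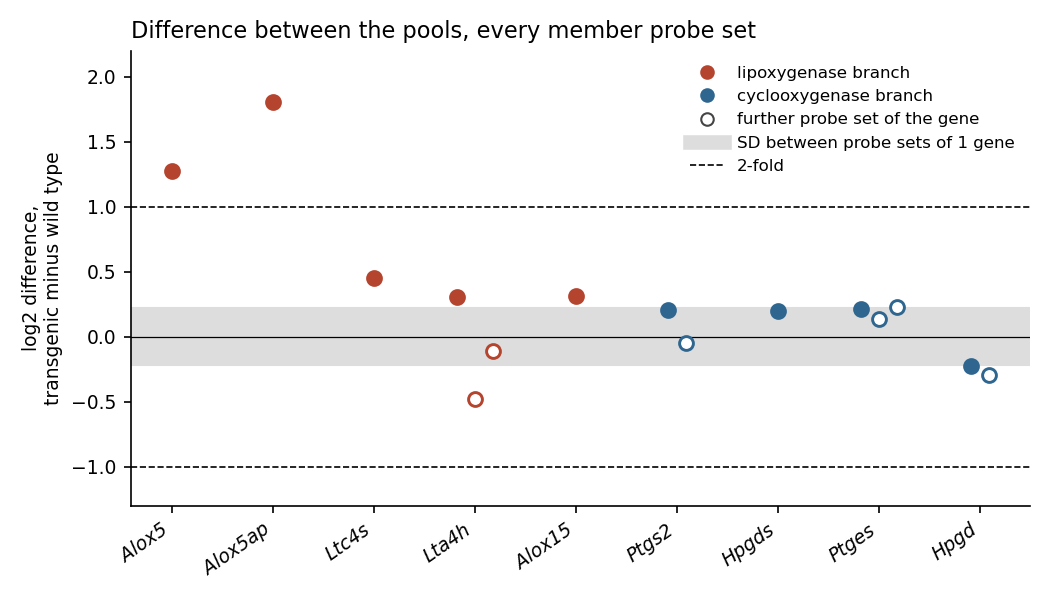
Log2 difference, transgenic minus wild type (vertical axis), of each member probe set, with the probe set that represents the gene filled and further ones open. The grey band is the within-gene SD of 0.22 on either side of 0, the dashed lines are 2-fold, and Alox5 (1.28) and Alox5ap (1.80) alone lie past them.

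By branch, the median difference was 0.45 over 5 lipoxygenase members and 0.20 over 4 cyclooxygenase members, beside 0.01 over all genes. The branch medians differed by 0.25. This difference depends on which members are counted, and is 0.66 without Alox15. The main probe sets of the lipoxygenase members lay between 0.30 and 1.80 and those of the cyclooxygenase members between -0.22 and 0.21. The ranges did not overlap in that choice of probe set, but the gap was smaller than the within-gene SD of 0.22. The lower end of the lipoxygenase range, 0.30, is that of Lta4h, for which no direction is given. Its further probe sets at -0.48 and -0.11 lay among or below the cyclooxygenase values. Of 7 lipoxygenase probe sets 5 lay above 0 and 2 below, and of 8 cyclooxygenase probe sets 5 lay above 0 and 3 below. Among the main probe sets of the members, only those of Alox5ap and Alox5 lay outside -0.45 to 0.46, which holds 95% of all genes. In these bulk samples, more cells of a type and more RNA per cell cannot be told apart.

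**Figure D3:**
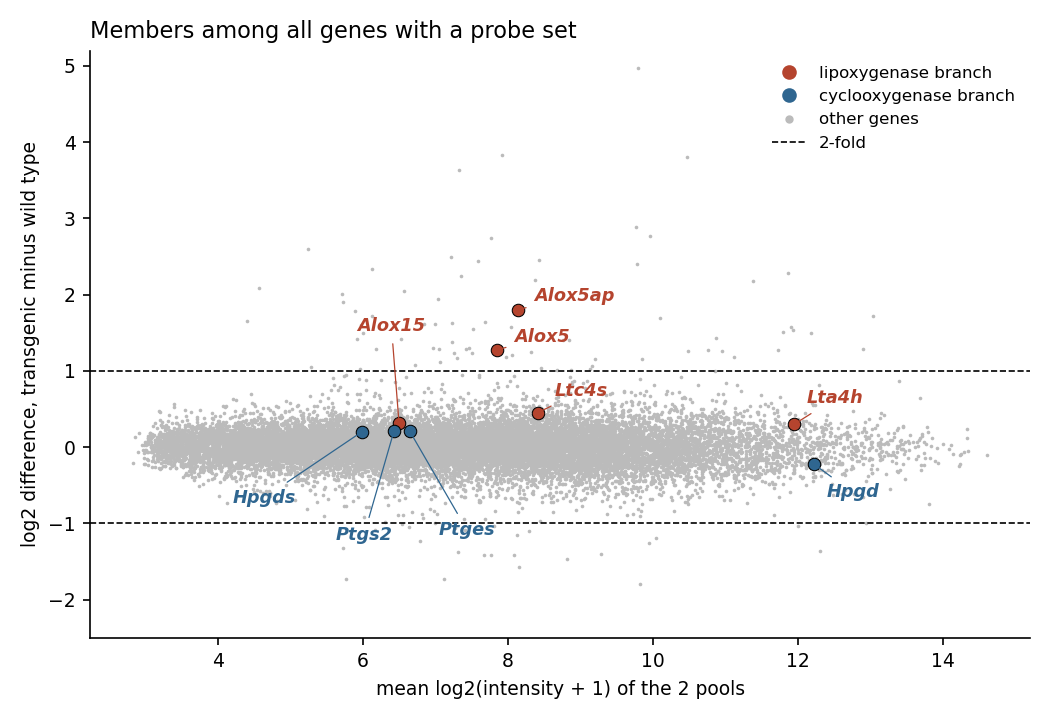
Log2 difference between the pools (vertical axis) against the mean log2(intensity + 1) (horizontal axis) of 18194 genes in grey, with the 9 measured members in colour and 2-fold as dashed lines. Alox5ap and Alox5 lie above the 2-fold line at middle intensity, and the other 7 members lie inside the cloud of genes.

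Upstream of both branches, 1 of 9 measured genes that free arachidonic acid was 2-fold higher and 0 were 2-fold lower, with a median of 0.24. Beside this and the lists below, the shares over all genes were 0.412% higher and 0.132% lower. A count of 0 is therefore usual in a short list. Pla2g4c, a cytosolic phospholipase A2, read 5293 in transgenic and 377 in wild-type tissue, a difference of 3.81. Pla2g4a, the cytosolic phospholipase A2 classically tied to eicosanoid release, read 266 and 206, a difference of 0.36, and Pla2g4e read 66.0 and 53.2, below the expression filter in both pools. Among the other lipoxygenases, 0 of 5 differed by 2-fold and the median was -0.12, or 0.02 when the probe sets of a gene were averaged. Alox12e, an epidermal enzyme, differed by -0.19, Alox8 by -0.19 and the highest of the 5, Alox12b, by 0.07. Only 2 of the 5 passed the expression filter. Alox8 (22.2 in transgenic and 25.4 in wild-type tissue), Alox12b (27.8 and 26.6) and Alox12 (41.8 and 45.4) did not. Alox12, the platelet enzyme, had probe sets at -0.12 and 0.15, so no direction is given for it.

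In the list for leukotriene processing, export and breakdown, 0 of 8 measured genes differed by 2-fold and the median was 0.12. Mgst3, a microsomal glutathione transferase of the protein family that also holds FLAP and leukotriene C4 synthase, read 5724 in transgenic and 3835 in wild-type tissue, a difference of 0.58 that averaged 0.36 over its 2 probe sets. Mgst2, another member of that family, read 2846 and 2922, a difference of -0.04. Ptgr1, a reductase that inactivates leukotriene B4 and prostaglandins, read 6066 and 9566, a difference of -0.66. Dpep1, a dipeptidase that converts leukotriene D4 to E4, read 3186 and 2629, a difference of 0.28, but lay at -0.09 when the probe set that can match several transcripts was avoided.

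Receptors for leukotrienes and lipoxins were mostly dim, with 1 of 5 measured genes past the expression filter, 0 past 2-fold and a median of 0.03. Ltb4r1, the leukotriene B4 receptor, was the one past the filter and read 216 in transgenic and 212 in wild-type tissue. Cysltr1, a receptor for cysteinyl leukotrienes, read 76.4 and 58.7, a difference of 0.38. Fpr2, the lipoxin receptor, read 45.7 and 63.5, a difference of -0.47, and Oxgr1, which binds leukotriene E4, read 14.6 and 15.5.

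On the prostaglandin side, 0 of 6 measured further synthases differed by 2-fold and the median was 0.05. Ptges2, a second prostaglandin E synthase, read 472 in transgenic and 351 in wild-type tissue, a difference of 0.43. Cbr1, a carbonyl reductase that can make prostaglandin F2 alpha, differed by 0.13 and Prxl2b, a prostaglandin F synthase, by -0.14. For uptake and breakdown, 0 of 5 genes differed by 2-fold and the median was -0.11. Slco2a1, the prostaglandin transporter that brings prostaglandins into the cell for breakdown by Hpgd, read 1054 and 1485, a difference of -0.49, and its 4 probe sets lay between -0.49 and -0.11. Akr1c18 and Zadh2, both reductases, differed by 0.27 and 0.17.

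Among prostanoid receptors, 0 of 9 differed by 2-fold, 8 lay below 0 and the median was -0.21. Only 5 of the 9 passed the expression filter, and 6 of the 9 lay below 0 when probe sets that can match several transcripts were avoided. Ptger4, a prostaglandin E2 receptor of the gut, read 725 in transgenic and 1053 in wild-type tissue, a difference of -0.54, and its second probe set lay at -0.57. Ptger2, another receptor for the same ligand, read 77.5 and 93.9, a difference of -0.27. Ptger3 read 19.5 and 30.3, a difference of -0.61, but its other probe set lay at 0.28.

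**Figure D4:**
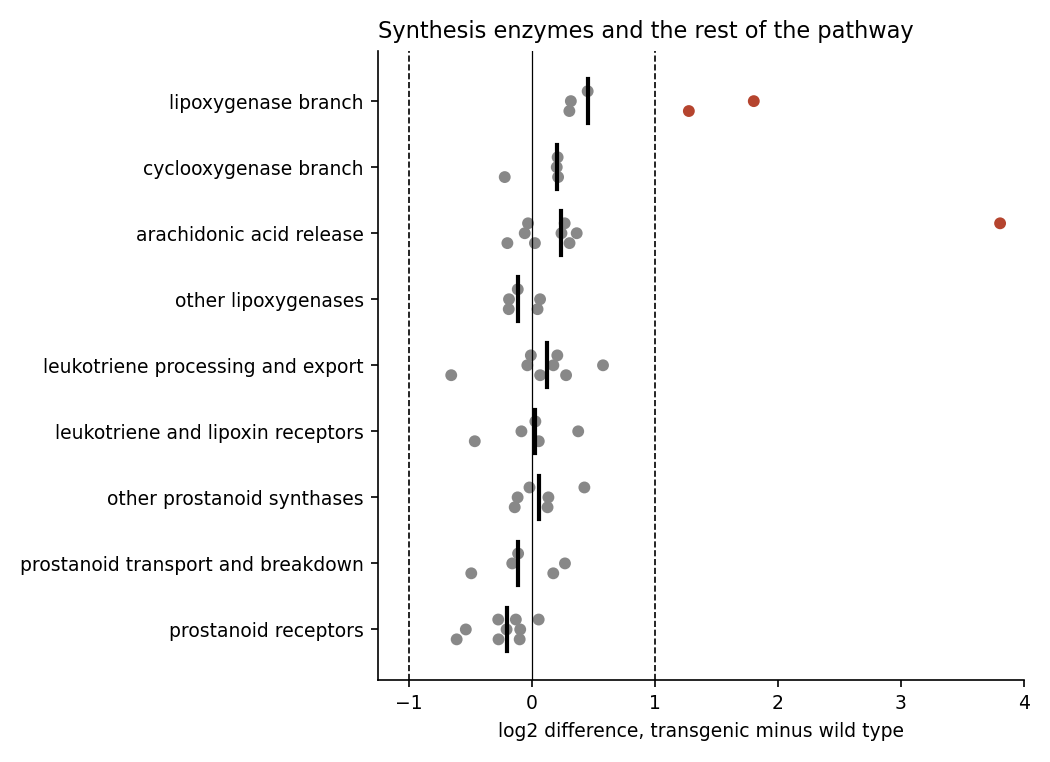
Log2 difference, transgenic minus wild type (horizontal axis), of each measured gene in the branches and in 7 lists of pathway genes, with medians as black bars, 2-fold as dashed lines and genes past 2-fold in red. Pla2g4c (3.81), Alox5ap (1.80) and Alox5 (1.28) are the genes past 2-fold, and the prostanoid receptors have the lowest median (-0.21).

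Markers of tuft cells and of mast cells, which are known to make leukotrienes, also differed between the pools. Of 13 measured tuft cell markers, 5 were 2-fold higher, where 0.412% of all genes with a probe set were, and 12 lay above 0. The marker lists were chosen with earlier results of these data known, so such a share describes and does not test. Of the 13, 9 passed the expression filter. The median was 0.37, and the summed intensity was 2018 in transgenic and 952 in wild-type tissue. The count of 5 was 4 when probe sets were averaged, when those that can match several transcripts were avoided, and at a pseudocount of 16. The largest differences in the list were those of Rgs13, a regulator of G protein signalling (352 against 61.7), Avil, the actin regulator advillin (353 against 73.9), Dclk1, a kinase (257 against 65.9), and Sh2d6, an adaptor protein (200.1 against 64.5). Sucnr1 was also 2-fold higher, but read 55.3 against 26.1, below the expression filter in both pools. Pou2f3, Il25, Plcb2 and Gfi1b differed by only 0.17, 0.13, 0.08 and 0.04. Dclk1 had 9 probe sets, whose differences ran from 0.24 to 1.95 with a mean of 0.81, and lay at 0.68 when probe sets that can match several transcripts were avoided. Of 13 mast cell markers, 4 were 2-fold higher, 12 lay above 0, the median was 0.71, and the summed intensity was 6363 against 1609. Mcpt2 and Mcpt1, chymases of mucosal mast cells, read 2364 against 319 and 2586 against 378, and Fcer1a, a chain of the IgE receptor, read 109 against 31.0. Hdc lay below 0 in each of its 2 probe sets, at -0.19 and -0.15. Tpsab1, Cma1 and Gata2 differed by 0.10, 0.18 and 0.24. Without Mcpt1 and Mcpt2 the other 11 markers summed to 1413 against 912, with 2 of them 2-fold higher and a median of 0.70. Alox5ap and Alox5 were higher in the same pool as most genes of both lists. With 1 array for each group, shared variation between genes could not be measured. The part of either cell type in the values of Alox5ap and Alox5 was not tested.

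Other cell types, among them macrophages, which were named above as a source of these mediators, are given by the same measures. Macrophage markers had a median of 0.10 over 9 genes, 0 past 2-fold, and summed to 4759 in transgenic and 4752 in wild-type tissue. Neutrophil markers had 0 of 8 genes past the expression filter and a median of 0.05, summing to 400 and 389. Among eosinophil markers, Siglecf, a lectin that tuft cells can also carry, read 156 against 30.0, while the granule genes Epx (20.0 against 19.4) and Prg2 (24.9 against 28.8) lay below the filter in both pools. Of 7 B cell markers, 2 were 2-fold lower, all 7 lay below 0, the median was -0.62 and the sum was 804 against 1342. Epithelial markers had a median of -0.11, and smooth muscle and fibroblast markers one of 0.03, with 0 genes past 2-fold in either list. No marker was at 0 in either pool, since every probe set read at least 5.60.

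**Figure D5:**
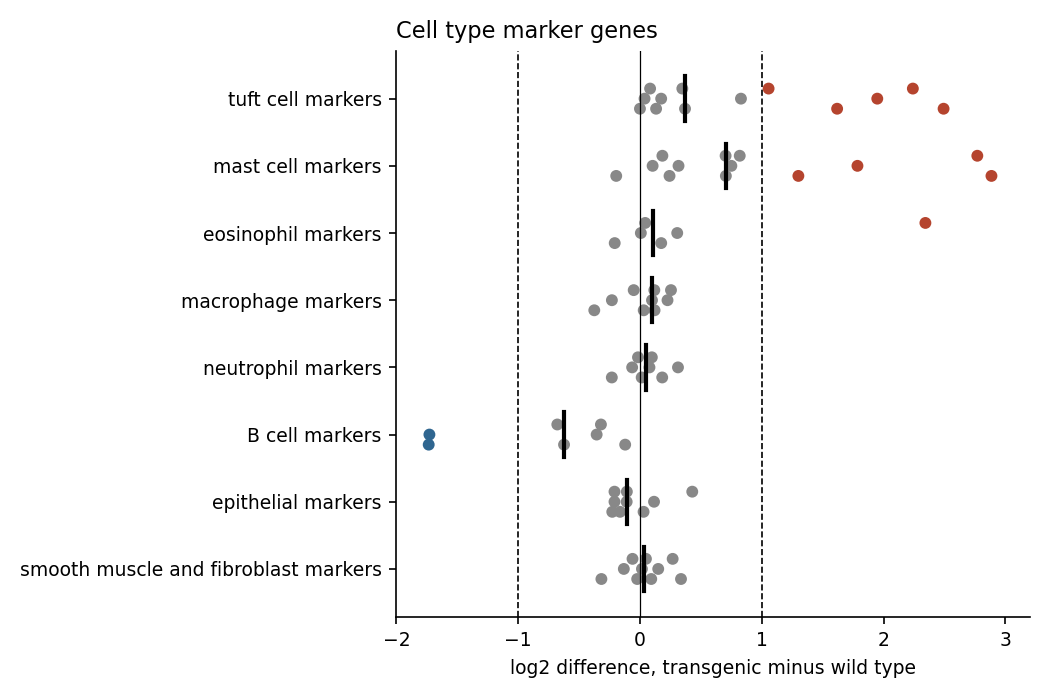
Log2 difference, transgenic minus wild type (horizontal axis), of each measured gene in 8 lists of cell type markers, with medians as black bars, 2-fold as dashed lines, genes 2-fold higher in red and 2-fold lower in blue. Genes past 2-fold higher are in the tuft cell (5), mast cell (4) and eosinophil (1, Siglecf) lists, and the 2 past 2-fold lower are B cell genes.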

How the data were processed

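The deposited values are probe set intensities on a linear scale, and RMA is named without a version in the submitters' processing notes. RMA equalises the distributions of the arrays and works in log2, so a shift shared by most genes could not be seen and dim genes show shrunken differences. Of 45101 probe sets, 34958 carried 1 gene symbol, 932 several and 9211 none in the platform annotation, and only those with 1 symbol were named. From these, log2(intensity + 1) was computed, and the wild-type value subtracted from the transgenic one. Folds on this scale are too small for dim genes. The probe set with the highest mean stood for its gene, and all probe sets of the members are given. A gene passed the expression filter when its higher value reached the median of all values, an intensity of 78.5.

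With 1 array in each group there is no spread between samples and no test. The members and gene lists were chosen with earlier results of these data known. The named genes are all members, up to 3 genes with the largest differences per pathway list and up to 4 per marker list. Defining markers at low level, such as Epx, were also named. Il9, Fabp1, Vil1, Alpi, Mgst2, Ltb4r1, Alox12b and the cytochrome P450 and epoxide hydrolase genes were named after their values were seen. So were Sucnr1, Pou2f3, Il25, Plcb2, Gfi1b, Hdc, Tpsab1, Cma1 and Gata2. Other probe set choices, pseudocounts, normalizations, filters and thresholds were tried. The gene summary was checked on simulated arrays with known changes in bright genes and an assumed noise. This check does not measure the spread between real arrays. Python 3.11.15, numpy 2.4.6, pandas 2.3.3 and matplotlib 3.10.9 were used.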

Additional observations from a re-analysis of the deposited data

How the results depend on the processing

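The count of 2 members higher by 2-fold and of 0 lower held under the other probe set choices, pseudocounts, normalizations and filters and at 1.5-fold. At 3-fold the count higher was 1. A filter at the 75th percentile of all values left 4 lipoxygenase members and 1 cyclooxygenase member, with branch medians of 0.86 and -0.22 and a difference of 1.09. Without Alox15 the lipoxygenase median was also 0.86, and the difference was 0.66. The other alternatives moved no branch median by more than the within-gene SD of 0.22. Of 54 values of single members under 6 alternatives, 52 moved by less than that SD. The exceptions were both for Lta4h, at -0.09 when its probe sets were averaged and -0.48 when probe sets that can match several transcripts were avoided. The medians of the other gene lists, recomputed under alternatives added after the data were seen, moved by less than that SD, though the median of the other lipoxygenases turned from -0.12 to 0.02 when probe sets were averaged. No array could be left out and no paired analysis was possible because each group has 1 array. The number of arrays limits the precision.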

Other observations

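The third route of arachidonic acid metabolism, oxidation by cytochrome P450 enzymes, was examined with gene lists chosen after the values of the other lists had been seen. Of 13 epoxygenase genes of the Cyp2c and Cyp2j families, which make epoxyeicosatrienoic acids, 10 had a probe set, 0 differed by 2-fold and the median log2 difference was -0.04. Cyp2c29 read 733 in transgenic and 401 in wild-type tissue, a difference of 0.87, while Cyp2c65 read 3761 and 3872, a difference of -0.04. Cyp2c55 read 421 and 521, a difference of -0.31. Genes of the Cyp2c family are close paralogs, and shared signal between their probe sets was not tested. Among 4 epoxide hydrolases, which open these epoxides, Ephx2, the soluble enzyme, read 3544 and 4363, a difference of -0.30. Ephx1, the microsomal enzyme, read 412 and 415. The 3 genes of the Cyp4a family with a probe set, which are known as fatty acid omega-hydroxylases, all read below the median of all values in both pools. On this route 0 of 17 genes with a probe set differed by 2-fold in either direction. Over all genes with a probe set, 0.412% were 2-fold higher and 0.132% lower, so 0 is the usual count in a list this short.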
